A study of Arabidopsis thaliana with 6 samples.

Results

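Pectin methylesterases are the enzymes that remove methyl groups from homogalacturonan, the main pectin of the plant primary cell wall. Genes were taken as members by locus from a list of 60 pectin methylesterase genes of Arabidopsis thaliana, and each was read from a probe set assigned to that gene alone. In all, 40 of the 60 genes had such a probe set, out of 13355 genes measured in the series. A further 2 probe sets were each assigned to a pair of members and were not used, and the other members were not analysed here. No member had more than 1 single-gene probe set, and all 40 probe sets were of the kind designed to match 1 transcript.

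The expression levels came from Affymetrix arrays of fluorescent cells sorted from roots of 5-day-old seedlings of the ecotype Col-0. One group was 3 arrays of cells sorted from WOX5::GFP seedlings and the other 3 arrays of cells sorted from pTMO5::GFP seedlings. WOX5 is a homeobox gene whose promoter is used to mark the quiescent centre of the root tip, and TMO5 is a basic helix-loop-helix gene whose promoter is used to mark young vascular and xylem cells. The sample descriptions pair the reporters with these cell types, while the cell type tag exchanges them, so the groups are named by reporter here. The labels do not say whether the arrays of a group came from separate plant cultures, so p-values cover array-to-array spread only, and that spread may be technical. How pure the sorts were is not stated in the labels.

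Methyl groups are added to pectin before it reaches the wall, and pectin methylesterases take them off in place. Removal in long runs lets calcium join neighbouring chains and stiffens the wall, while scattered removal opens the chain to polygalacturonases and pectate lyases. Inhibitor proteins bind the enzymes and hold them inactive, and many pectin methylesterases carry an inhibitor-like stretch that subtilisin-type proteases cut off before secretion. The family is large, and a number of its members are known chiefly from pollen and other floral tissue.

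Markers of the sorted cells were read first. Among 7 measured markers of the quiescent centre and niche, WOX5 cells had 6 higher and 0 lower, where 14.3% and 9.49% of all probe sets were. The 6 became 4 with quantile normalization, median centring or a replicate block, and when 1 array was omitted, except for WOX5 replicate 2. Of 4 measured xylem regulators, 1 was higher and 1 lower in WOX5 cells, and neither call held with a replicate block, without WOX5 replicate 3 or without TMO5 replicate 2. Markers of other root cells passed as higher in WOX5 cells too. The cortex gene AT1G62500 was 12.3-fold higher (limma adjusted p = 0.0026). The other cortex gene measured, AT1G09750, went the other way and did not pass (limma adjusted p = 0.056). It was 2.31-fold lower in WOX5 cells, and its groups did not overlap. Under some settings, among them quantile normalization and median centring, 1 cortex gene passed as higher and 1 as lower. LBD16, known from lateral root formation in the pericycle, was 2.34-fold higher (limma adjusted p = 0.0065), and LBD29 did not pass. The measured genes of the phloem and root cap lists, 1 in each, did not pass. The part of other cell types in the differences of the pectin methylesterase genes was not tested. The transcripts of WOX5 and TMO5 themselves, the endodermis list and the list of xylem secondary wall genes had no single-gene probe set and were not analysed here. Correlations of log2 intensity between arrays were 0.9225 to 0.9402 within the WOX5 group and 0.934 to 0.9388 within the TMO5 group, and 0.8337 to 0.8751 between groups. Each reporter lies in its own set of arrays, so array handling cannot be told apart from the reporter.

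The comparison asked which pectin methylesterase genes differed between WOX5-marked and TMO5-marked cells. AT1G02810 and AT5G04970 were higher in WOX5 cells, by 7.23-fold and by at least 6.22-fold. AT5G04960 was lower by 3.57-fold and AT3G59010 by at least 1.20-fold. The other 36 measured members did not pass a limma adjusted p of 0.05. The 4 calls are 10.0% of the 40 members, against 23.8% of all 22746 probe sets tested. By direction, 2 of 40 were higher, where 14.3% of all probe sets were, and 2 of 40 were lower, where 9.49% were. The median log2 difference of the members, WOX5 minus TMO5, was -0.04, and that of all probe sets was 0.03.

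Most members were dim. Background was taken as an intensity of 30.8 in the WOX5 group and 23.4 in the TMO5 group, the level under which 95% of the 27 unspiked bacterial control probe sets fell. By the mean of log2 intensity, 10 members stood above background in both groups, 4 in WOX5 cells alone, 3 in TMO5 cells alone and 23 in neither. The 17 members above background in at least 1 group make 42.5% of those measured, against 75.6% of all tested probe sets. Of the probe sets above background in at least 1 group, 30.0% passed the test, and of the 17 members above it 4 passed. In sorted cell populations, fewer cells of a type and less RNA per cell cannot be told apart.

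**Figure D1:**
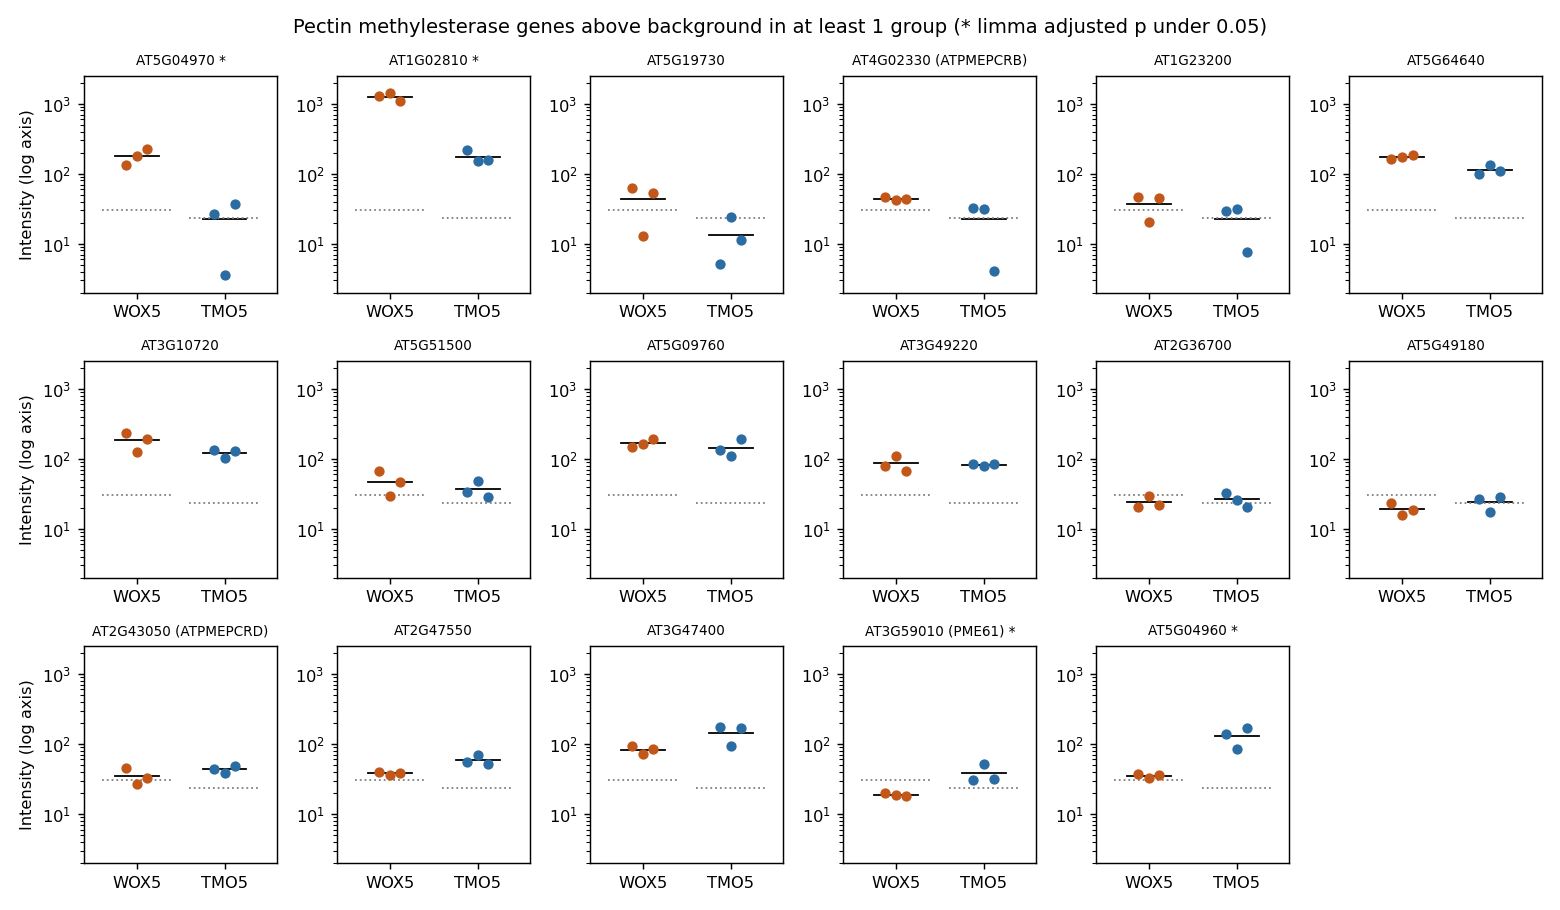
Intensity on a log axis of the 17 pectin methylesterase genes above background in at least 1 group, with a point per array, WOX5 arrays on the left and TMO5 arrays on the right of each panel. Black lines are group means, dotted lines are the background of each group, and a star marks a limma adjusted p under 0.05. AT1G02810 lies near 1262 in WOX5 cells and near 176 in TMO5 cells, and most other members lie within 1 order of magnitude of background.

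AT1G02810 was the member with the clearest difference. Its intensity was 1276, 1415 and 1094 on the WOX5 arrays, against 219, 152 and 157 on the TMO5 arrays. Every WOX5 array stood far above every TMO5 array, and all 6 values stood above background. The means were 1262 ± 161 in WOX5 cells and 176 ± 36.9 in TMO5 cells (SD, n = 3 each). The log2 difference was 2.85 ± 0.21 (SE), with a limma adjusted p of 0.0014. The gene passed under all 13 alternative settings, with adjusted p up to 0.021 and log2 differences of 2.48 to 3.02.

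AT5G04970 and AT5G04960 are direct neighbours in the TAIR10.1 gene table and differed in opposite directions. AT5G04970 read 135, 181 and 228 on the WOX5 arrays, against 26.6, 3.55 and 37.3 on the TMO5 arrays. The groups did not overlap, and the mean log2 level in TMO5 cells lay within background. TMO5 replicates 1 and 3 lay above the TMO5 background of 23.4, and replicate 2 lay far below it. Taken on TMO5 replicate 1 alone, that level was 28.7, above the 26.6 read there. The fold of at least 6.22 was taken against the TMO5 background or the array's own value, whichever was higher. The measured log2 difference was 3.54 ± 0.92 (SE), with a limma adjusted p of 0.043. The call was lost with quantile normalization (limma adjusted p = 0.056), without any 1 WOX5 array and without TMO5 replicate 1 or 3, with adjusted p up to 0.11. Without TMO5 replicate 2 the log2 difference was 2.49 and the gene passed, with a limma adjusted p of 0.016.

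AT5G04960 read 37.1, 32.5 and 36.0 on the WOX5 arrays, against 138, 84.3 and 169 on the TMO5 arrays. All WOX5 values were below all TMO5 values. The means were 35.2 ± 2.42 in WOX5 cells and 130 ± 42.9 in TMO5 cells (SD, n = 3 each), and the WOX5 mean is close to the background of 30.8. The log2 difference was -1.83 ± 0.29 (SE), with a limma adjusted p of 0.0097. It passed under all 13 alternative settings, with adjusted p up to 0.039.

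A list of 8 genes known from root hairs was read beside AT5G04960. The list, which holds no pectin methylesterase, had 4 genes measured. In WOX5 cells 2 were lower and 0 higher, where 9.49% and 14.3% of all probe sets were. The summed intensity of the 4 genes ran from 187 to 261 on the WOX5 arrays, against 463 to 858 on the TMO5 arrays. The class III peroxidase genes AT4G26010 and AT3G49960 passed as lower. No gene of the list passed without WOX5 replicate 1, without TMO5 replicate 3 or with a replicate block, and 1 passed as lower without any 1 of the other arrays. Between 2 and 4 passed as lower under the other settings, with 4 after median centring. The expansin gene EXPA7 averaged 42.3 in WOX5 cells and 114 in TMO5 cells, and EXPA18 averaged 78.7 in WOX5 cells and 127 in TMO5 cells. Neither passed (limma adjusted p = 0.11 and 0.14), and the groups overlapped in both. The part of root hair cells in the difference of AT5G04960 was not tested.

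AT3G59010 is listed as PME61, with PME35 among its synonyms, and is known as PME35 for its part in the mechanical strength of the inflorescence stem. It read 20.2, 18.5 and 18.1 on the WOX5 arrays, against 30.5, 52.1 and 31.8 on the TMO5 arrays. All WOX5 values lay within background and all TMO5 values lay somewhat above it, so the fall is at least 1.20-fold. The log2 difference was -0.97 ± 0.25 (SE), with a limma adjusted p of 0.042. Omitting any 1 of the 6 arrays ended the call (adjusted p up to 0.11), as did a variance model with trend and robust fitting (limma adjusted p = 0.084).

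**Figure D2:**
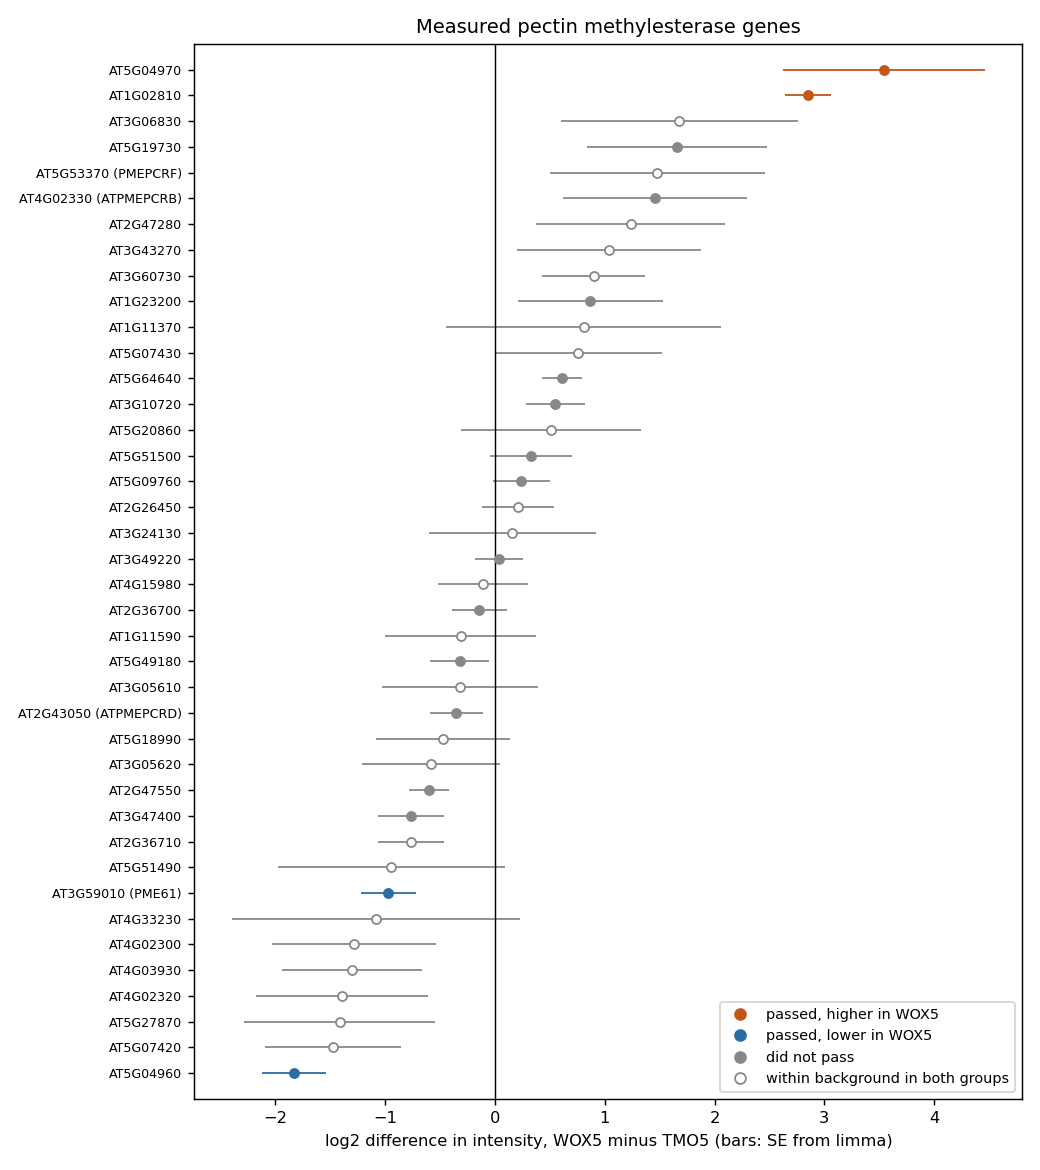
Log2 difference in intensity, WOX5 minus TMO5, for the 40 measured pectin methylesterase genes, with bars for the SE from limma. Coloured points passed a limma adjusted p of 0.05, grey points did not, and open points are genes within background in both groups. The open points have wide bars, with a median SE of 0.756 against 0.248 for the genes above background in both groups.

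Several members above background in both groups came near the threshold. AT5G64640 read 161, 175 and 183 on the WOX5 arrays, against 98.4, 135 and 108 on the TMO5 arrays. The groups did not overlap, and the log2 difference of 0.61 ± 0.18 (SE) had a limma adjusted p of 0.058. AT2G47550 read 40.4, 35.7 and 39.0 on the WOX5 arrays, against 55.3, 69.8 and 51.3 on the TMO5 arrays. Its groups did not overlap either, and the log2 difference of -0.60 ± 0.18 (SE) had a limma adjusted p of 0.059. AT3G47400 read 92.2, 71.7 and 85.5 on the WOX5 arrays, against 174, 92.1 and 170 on the TMO5 arrays. TMO5 replicate 2 fell among the WOX5 values, and the log2 difference was -0.76 ± 0.30 (SE), with a limma adjusted p of 0.12. Without that array AT3G47400 passed as lower (limma adjusted p = 0.039), and it also passed as lower after quantile normalization or median centring.

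The plot of adjusted p by setting shows how these genes stand to the threshold. AT2G47550 passed as lower under 5 of 13 alternative settings, with adjusted p of 0.013 to 0.16. AT5G64640 passed as higher under 3 of 13, with adjusted p of 0.023 to 0.39. With quantile normalization the log2 difference of AT2G47550 was -0.85 and it passed as lower, while that of AT5G64640 was 0.28 and it did not pass. Array medians were 91.65 to 92.6 in the WOX5 group and 68.05 to 74.49 in the TMO5 group, at the same trimmed mean of 250.0.

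**Figure D3:**
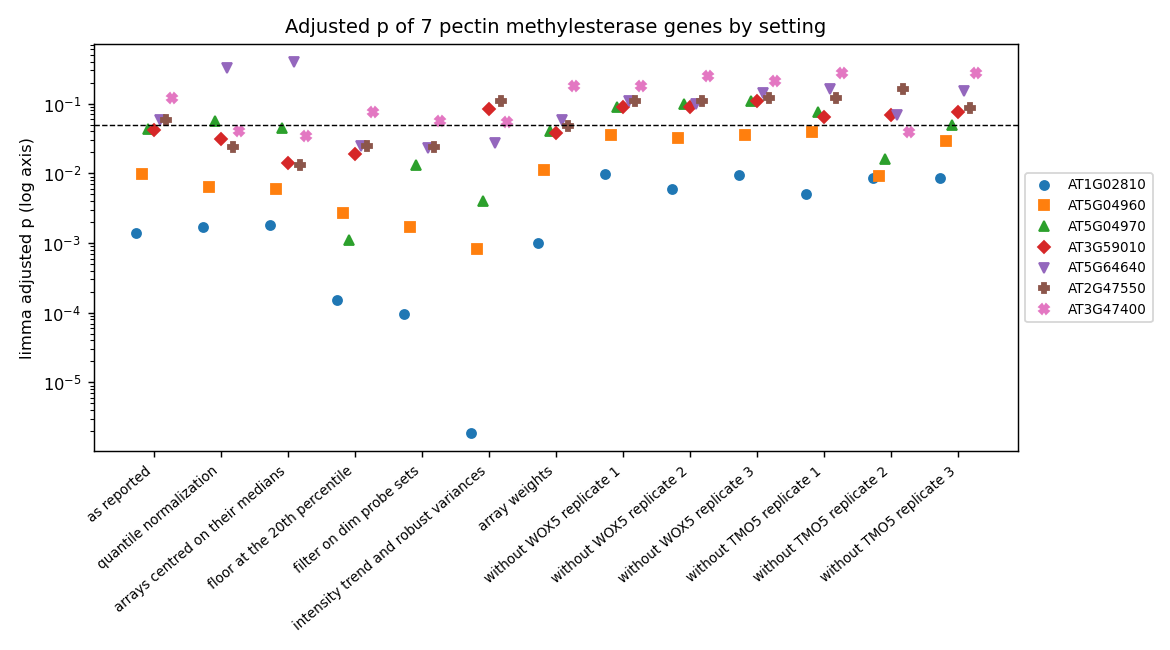
Limma adjusted p on a log axis for 7 pectin methylesterase genes, as reported and under 12 of the 13 alternative settings. The dashed line is at 0.05, and AT3G59010 has no point under the filter on dim probe sets, which left it out. The replicate block is not plotted. Under it, of the 7 genes, only AT1G02810 and AT5G04960 passed (limma adjusted p = 0.021 and 0.036). AT1G02810 and AT5G04960 lie under the line in every setting plotted, while AT5G04970, AT3G59010, AT5G64640, AT2G47550 and AT3G47400 lie on either side of it.

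The remaining members above background in both groups gave smaller differences, none of which passed. AT3G10720 read 232, 126 and 193 on the WOX5 arrays, against 135, 102 and 128 on the TMO5 arrays, with a log2 difference whose 95% interval was -0.13 to 1.24. WOX5 replicate 2 lay among the TMO5 values, so the groups overlapped. AT5G09760 read 146, 162 and 194 on the WOX5 arrays, against 132, 110 and 193 on the TMO5 arrays, with a 95% interval of -0.40 to 0.88. AT3G49220 read 79.5, 111 and 67.2 on the WOX5 arrays, against 84.4, 78.3 and 83.2 on the TMO5 arrays, with a 95% interval of -0.51 to 0.59. For both genes the groups overlapped, and the sign turned under quantile normalization and median centring.

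AT5G51500 read 66.3, 29.7 and 46.3 on the WOX5 arrays, against 33.2, 48.9 and 28.4 on the TMO5 arrays, and its sign turned after median centring. ATPMEPCRD (AT2G43050) read 45.4, 27.0 and 32.4 on the WOX5 arrays, against 44.2, 38.8 and 48.2 on the TMO5 arrays. In both of these genes the groups overlapped and the levels were close to background.

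Members above background in WOX5 cells alone, other than AT5G04970, were ATPMEPCRB (AT4G02330), AT5G19730 and AT1G23200. ATPMEPCRB, also listed as PME41 and known from chilling responses, read 46.6, 42.3 and 43.8 on the WOX5 arrays, against 32.4, 31.4 and 4.10 on the TMO5 arrays. The groups did not overlap, and the log2 difference of 1.46 ± 0.84 (SE) did not pass. Without TMO5 replicate 3, the low array, it was 0.47 and did not pass either (limma adjusted p = 0.13). AT5G19730 read 63.4, 13.0 and 53.5 on the WOX5 arrays, against 5.18, 23.7 and 11.3 on the TMO5 arrays. AT1G23200 read 46.8, 20.3 and 45.2 on the WOX5 arrays, against 29.1, 31.4 and 7.63 on the TMO5 arrays. In both, WOX5 replicate 2 was low while the other WOX5 arrays exceeded every TMO5 array, and neither passed. In ATPMEPCRB and AT1G23200, TMO5 replicates 1 and 2 lay above the TMO5 background of 23.4. Only TMO5 replicate 3 brought the TMO5 means of these genes within background.

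Members above background in TMO5 cells alone, other than AT3G59010, were AT2G36700 and AT5G49180. AT2G36700 read 20.3, 29.8 and 21.8 on the WOX5 arrays, against 32.8, 25.9 and 20.6 on the TMO5 arrays. AT5G49180 read 23.3, 15.8 and 18.4 on the WOX5 arrays, against 26.9, 17.3 and 28.2 on the TMO5 arrays. Both overlapped between groups and neither passed. AT2G36700 averaged 24.0 in WOX5 cells and 26.4 in TMO5 cells. Its place in this class rests on the unlike background levels of 30.8 and 23.4.

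The other 23 members lay within background in both groups, with array values of 0.836 to 55.2 and none called in the fit as reported. They were AT1G11370, AT1G11590, AT2G26450, AT2G36710, AT2G47280, AT3G05610, AT3G05620, AT3G06830, AT3G24130, AT3G43270, AT3G60730, AT4G02300, AT4G02320, AT4G03930, AT4G15980, AT4G33230, AT5G07420, AT5G07430, AT5G18990, AT5G20860, AT5G27870, AT5G51490 and PMEPCRF (AT5G53370). The median of their array values was 12.3 in WOX5 cells and 10.3 in TMO5 cells. Measured log2 differences ran from -1.47 to 1.68, but values within background have no order. AT5G07420 and AT5G07430 were the 2 measured members of a list of 7 pollen genes, and both are in this set.

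Of all 40 measured members, 9 had groups that did not overlap, 4 higher and 5 lower in WOX5 cells. That is 22.5% of the members, against 46.7% of all tested probe sets, of which 24.4% were higher and 22.4% lower in WOX5 cells. In the gene table, 14 pairs of members stand next to each other with no protein-coding gene between, and 6 of these pairs had both genes measured. AT5G04960 and AT5G04970 formed the 1 pair in which both genes passed. In 2 of the pairs, AT3G05610 with AT3G05620 and AT5G07420 with AT5G07430, both genes lay within background in both groups. In the other 3 pairs, AT2G36700 with AT2G36710, AT4G02320 with AT4G02330 and AT5G51490 with AT5G51500, 1 gene lay within background in both groups and neither gene passed.

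Genes that act on pectin beside the methylesterases were read from lists by role. The counts of each list stand beside 14.3% of all probe sets higher and 9.49% lower in WOX5 cells. Of 11 inhibitors of pectin methylesterase, 7 were measured, with 2 higher and 0 lower in WOX5 cells and a median log2 difference of 0.08. AT4G25260 read 708, 715 and 778 on the WOX5 arrays, against 109, 114 and 111 on the TMO5 arrays. The groups lay far apart, a 6.61-fold rise with a limma adjusted p of 0.00079, and the gene passed under all 13 alternative settings. AT1G62770 was 3.04-fold higher, at 109 ± 38.3 in WOX5 cells and 35.7 ± 12.1 in TMO5 cells (SD, n = 3 each; limma adjusted p = 0.035), and passed under 7 of 13. Omission of WOX5 replicate 1 or 3 or of TMO5 replicate 2 or 3 ended its call, with adjusted p up to 0.099.

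Of 3 subtilases known from the processing of pectin methylesterases or from seed mucilage, all were measured and 1 was lower in WOX5 cells. ARA12 (AT5G67360), a subtilase known from mucilage release, read 724, 989 and 853 on the WOX5 arrays, against 1775, 2110 and 2207 on the TMO5 arrays. The groups did not overlap, and the fall was 2.38-fold (limma adjusted p = 0.0085). S1P (AT5G19660), a Golgi protease that cleaves the inhibitor-like stretch, had a log2 difference of -0.49 ± 0.15 (SE) and did not pass (limma adjusted p = 0.074). Its groups did not overlap. S1P passed as lower under some settings, among them quantile normalization (limma adjusted p = 0.028) and median centring (limma adjusted p = 0.014). With array weights or a replicate block it did not pass (limma adjusted p = 0.057 and 0.18). SBT3.5 (AT1G32940), known to process a pectin methylesterase of roots, did not pass either, at -0.19 ± 0.25 (SE).

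Pectate lyases, which cut pectin from which methyl groups have been removed, were measured for 23 of 26 listed genes. In WOX5 cells 2 were higher and 6 were lower, where 14.3% and 9.49% of all probe sets were. The median log2 difference over the list was -0.55 beside 0.03 for all probe sets. With a floor at the 20th percentile of each array that median was 0.02, and with quantile normalization it was -0.87. AT3G53190 read 1191, 884 and 1332 on the WOX5 arrays, against 2942, 3625 and 3409 on the TMO5 arrays, a 2.96-fold fall (limma adjusted p = 0.0063) that held under all 13 alternative settings. AT1G11920 had the largest measured fall, but lay within background in both groups. The rises were of AT5G04310, at least 3.97-fold, and AT5G09280, at least 1.79-fold, both within background in TMO5 cells. AT5G04310 read 74.1, 162 and 67.1 on the WOX5 arrays, against 8.65, 2.83 and 2.47 on the TMO5 arrays, and the groups did not overlap.

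Of 8 polygalacturonases, which cut the same pectin backbone, 4 were measured. The 1 that passed, AT1G78400, lay within background in both groups and kept its call under 5 of 12 alternative settings.

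Pectin acetylesterases, which remove acetyl groups from pectin, were measured for 5 of 11 listed genes, with 1 higher and 1 lower in WOX5 cells. AT5G26670 read 921, 1905 and 993 on the WOX5 arrays, against 77.3, 96.9 and 86.4 on the TMO5 arrays. All WOX5 values lay far above the TMO5 values, a 13.9-fold rise (limma adjusted p = 0.0018). AT3G05910 was 2.36-fold lower, at 763 ± 171 in WOX5 cells and 1767 ± 54.0 in TMO5 cells (SD, n = 3 each; limma adjusted p = 0.013), and lost the call without TMO5 replicate 2 (limma adjusted p = 0.050) and with a replicate block (limma adjusted p = 0.057). Among genes of pectin synthesis and methylation 1 of 7 was measured, AT3G49720, at a log2 difference of 0.52 ± 0.23 (SE). Of 3 receptor kinases tied to pectin only FER, known as a sensor of the wall, was measured, at -0.17 ± 0.18 (SE), and neither gene passed.

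**Figure D4:**
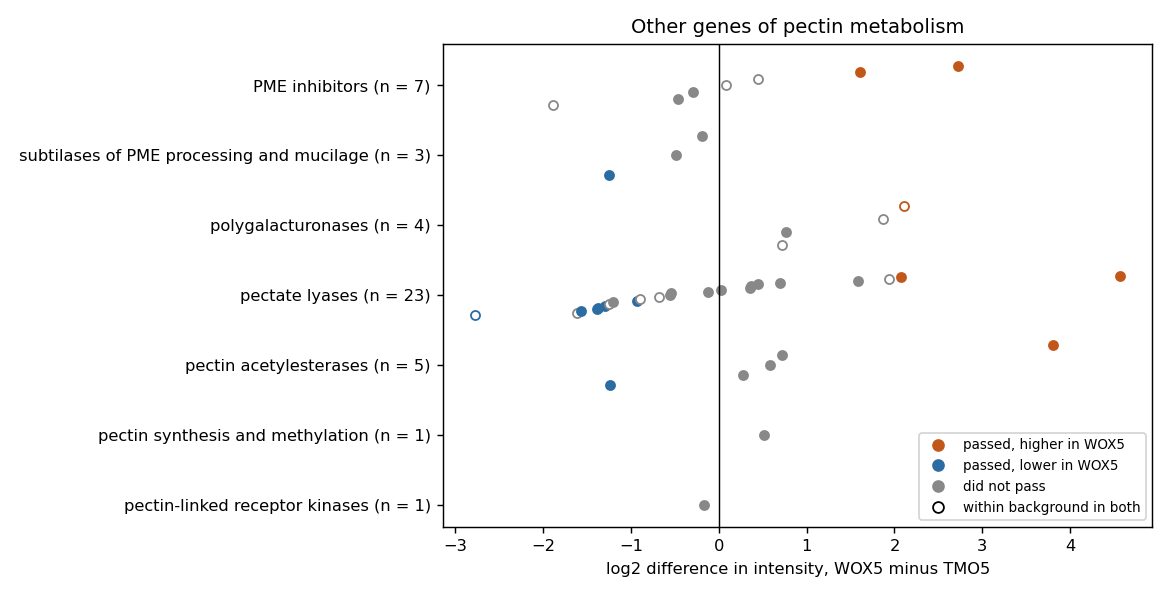
Log2 difference in intensity, WOX5 minus TMO5, for the measured genes of 7 lists of pectin metabolism, with a point per gene and n the number measured. Coloured points passed a limma adjusted p of 0.05, grey points did not, and open points lie within background in both groups. The 23 pectate lyases reach from -2.77 to 4.57, with 6 lower and 2 higher in WOX5 cells.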

How the data were processed

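The authors deposited 1 table of linear array intensity for 22810 probe sets on 6 arrays, without detection calls. Per the labels' protocols, RNA was labelled with biotin in 1 or 2 cycles, and no source used here names the software behind the values. Which labelling each array received is not given, so a difference in labelling between the groups cannot be told apart from the reporter. The mean of every array, leaving out the top and bottom 2% of values, was 250.0. Values under 1 were raised to 1, log2 was taken, and the 22746 probe sets other than 64 controls were fitted in R 4.3.3 by limma 3.58.1 (lmFit, eBayes, WOX5 minus TMO5, Benjamini-Hochberg adjustment, threshold 0.05), without further normalization. The fitting step was tested on simulated data. The number of arrays limits the precision.

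Probe sets were named through the platform annotation and the TAIR10.1 gene table by gene identifier, using the probe set with the highest mean per gene. Where a group lay within background, the fold is a lower bound, computed against the background level or the array's own value, whichever was higher. Every measured pectin methylesterase was named. Of the other lists, up to 2 rises and 2 falls with the largest log2 differences were named, or the smallest p where none passed. Subtilases, receptor and synthesis genes beyond this were named after their values were seen, as were the marker genes and the genes named for lost calls. The members and lists were chosen with earlier results of these data known. Alternatives were quantile normalization, median centring, a floor at the 20th percentile, a filter on dim probe sets, an intensity trend with robust variances, array weights, a replicate block, leaving out each array, and the dimmest probe set per gene. No sequence is shown because none was in the tables used here.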

Additional observations from a re-analysis of the deposited data

How the results depend on the processing

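Calls over all probe sets numbered 5411, and 2270 with a replicate block and 2827 to 4854 with 1 array left out, but 7538 with centred arrays, and between 5431 and 7416 under the other settings. The share of calls higher in WOX5 cells was 60.1%, against 47.2% with quantile normalization and 29.7% with centred arrays, and over all probe sets the median log2 difference was 0.03, -0.14 and -0.35 in that order. Members higher in WOX5 cells numbered 2, but 1 with quantile normalization or a replicate block and 1 to 2 with 1 array left out. They numbered 3 with the floor at the 20th percentile, an intensity trend and robust variances, or the filter on dim probe sets, which kept 11 members. Those lower numbered 2, but 4 with quantile normalization, 3 with the floor or array weights and 5 with centred arrays. They numbered 1 with the intensity trend or a replicate block and 1 to 2 with 1 array left out. With centred arrays lower calls over all probe sets rose too, from 2159 to 5297. Using the dimmest probe set per gene changed neither count, since no member had several. Under some settings the counts include members within background in both groups. AT2G47280 passed as higher without WOX5 replicate 3 (limma adjusted p = 0.03), where AT5G04970 did not pass. AT4G02300 passed as lower without TMO5 replicate 3 (limma adjusted p = 0.024), and AT2G36710 with centred arrays (limma adjusted p = 0.04). Turns of sign are listed for members above background in at least 1 group, and some members within background turned too. Of members without a call, AT3G49220 turned to -0.35 with quantile normalization, -0.34 with centred arrays and -0.09 with array weights. It ran from -0.16 without WOX5 replicate 2 to 0.20 without WOX5 replicate 3. AT5G09760 turned to -0.07 and -0.14 with quantile normalization and centred arrays, AT5G51500 to -0.05 with centred arrays and AT2G36700 to 0.03 without TMO5 replicate 1, in a range from -0.30 with 1 array left out. The pectate lyase gene AT1G11920, within background, turned to 0.13 with the floor at the 20th percentile, a floor that replaces both groups' values there. Centring lowers every log2 difference by the same amount. The cause of the turns under the other settings was not tested. Same-numbered arrays did not deviate together (correlations of -0.0238, 0.00656 and -0.0183), and not every array correlated best with its own number. Correlations near 0 cannot show whether same-numbered arrays were handled together, so a pairing by number is left undecided. With the replicate block the members AT5G04970 and AT3G59010 lost their calls (limma adjusted p = 0.077 and 0.10) and the falls among pectate lyases numbered 3. Signal within background limits what can be read for 23 of the 40 members.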
